A study of Mus musculus with 2 samples.

Results

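The 32 genes described here encode the glucose and lactate carriers and the enzymes of glycolysis (Slc2a1, Slc2a3, Hk1, Hk2, Hk3, Gpi1, Pfkl, Pfkp, Pfkm, Pfkfb3, Pfkfb4, Aldoa, Aldoc, Tpi1, Gapdh, Pgk1, Pgam1, Eno1, Pkm, Ldha, Pdk1, Slc16a3), together with targets of the hypoxia-inducible factors and 1 subunit of such a factor (Bnip3, Bnip3l, Ero1l, P4ha1, P4ha2, Egln3, Ndrg1, Adm, Mif, Hif1a). They were chosen by gene symbol among the 31053 features of the count tables, and all 32 were present. The cells came from the ischemic brain of Foxp3Egfp mice aged 6 to 8 weeks, a reporter strain that marks regulatory T cells with a green fluorescent protein. Cells positive for CD45, CD11b and F4/80 and negative for CD3 were sorted and profiled by droplet sequencing (Chromium 3′ v3 chemistry), in which unique molecular identifiers (UMIs) tag transcripts near their 3′ end. There was 1 group with 2 replicate libraries and no control group, so every comparison below is between kinds of cells within the same libraries. The labels do not say that the libraries came from separate animals, and cDNA of mice with stroke was combined before sequencing. With the library fitted as a block, p-values set a difference between kinds of cells against how much such differences varied between these 2 libraries. That variation was pooled over all classes or clusters in a fit, and may be technical.

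Glycolysis splits glucose into pyruvate, which either enters mitochondria or is reduced to lactate and exported. When oxygen is low, the alpha subunits HIF-1α (Hif1a) and HIF-2α (Epas1) escape hydroxylation by the oxygen-sensing prolyl hydroxylases, pair with ARNT and bind a short DNA element beside many glycolytic genes. In macrophages Hif1a is also induced by inflammatory signals, and microglia and blood-derived macrophages meet both low oxygen and tissue damage after stroke.

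The core letters of that element, ACGTG on either strand, were searched in the 250 bases before each annotated start. They were found for 17 of the 29 members with a promoter window in the RefSeq table (58.6%) and for 18.5% of the 27025 genes in it. Among the 19408 of those genes that are also features here the share was 19.7%. The members were picked as glycolysis genes and HIF targets, so a higher share among them may follow from that choice. By window rather than by gene the shares were 20 of 42 member windows (47.6%) and 16.6% of all windows. With GCGTG counted too, the shares of genes were 89.7% and 41.5%. A palindromic CACGTG counts once on each strand, and the same letters are an E-box that other factors bind. The 6 windows of 180 bases printed here belong to enzymes, a carrier and a mitophagy receptor that the results turn on, were chosen after their values were seen, and are given 5′ to 3′ on the strand of the gene, from RefSeq in build GRCm38.p6. Capitals mark the matched letters. The Pgk1 window lies at chrX:106186920-106187099 on the plus strand, Ldha at chr7:46845624-46845803 (plus), Slc16a3 at chr11:120948887-120949066 (plus), Bnip3 at chr7:138909507-138909686 (minus), Hk2 at chr6:82774455-82774634 (minus) and Pfkfb3 at chr2:11502091-11502270 (minus).
Pgk1: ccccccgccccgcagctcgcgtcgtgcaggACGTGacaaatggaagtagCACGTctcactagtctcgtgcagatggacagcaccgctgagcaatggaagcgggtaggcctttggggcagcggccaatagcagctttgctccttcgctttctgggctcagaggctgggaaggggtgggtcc
Ldha: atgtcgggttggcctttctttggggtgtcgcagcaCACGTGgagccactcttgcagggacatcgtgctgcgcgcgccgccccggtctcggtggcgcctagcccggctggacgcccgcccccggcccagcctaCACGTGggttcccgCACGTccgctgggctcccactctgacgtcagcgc
Slc16a3: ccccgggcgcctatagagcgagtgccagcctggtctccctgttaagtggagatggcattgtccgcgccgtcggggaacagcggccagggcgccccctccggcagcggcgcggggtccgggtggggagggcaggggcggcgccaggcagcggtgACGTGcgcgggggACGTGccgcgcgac
Bnip3: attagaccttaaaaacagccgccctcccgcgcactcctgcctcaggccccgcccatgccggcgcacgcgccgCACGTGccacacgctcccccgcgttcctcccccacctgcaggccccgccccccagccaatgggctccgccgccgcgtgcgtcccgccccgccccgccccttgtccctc
Hk2: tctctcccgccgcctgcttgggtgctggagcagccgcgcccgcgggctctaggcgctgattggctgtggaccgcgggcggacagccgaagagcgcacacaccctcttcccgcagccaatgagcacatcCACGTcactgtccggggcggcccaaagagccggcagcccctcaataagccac
Pfkfb3: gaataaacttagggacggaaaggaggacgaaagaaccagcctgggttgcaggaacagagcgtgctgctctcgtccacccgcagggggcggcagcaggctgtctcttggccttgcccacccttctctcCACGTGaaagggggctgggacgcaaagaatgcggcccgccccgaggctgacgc
Ldha held 3 separate stretches with the letters, and the other printed windows held 1 or 2. Hk2 and Slc16a3, whose levels went in opposite directions between microglia-like and monocyte-like cells (given beside their values), both held a match. A match describes these letters only and says nothing of binding in these cells. No ACGTG lay in the windows of Tpi1, Gapdh, Gpi1, Eno1, Pfkp, Pfkl, Pfkfb4, Pdk1, Hk1, Mif, Adm or Aldoc. Slc2a3, Bnip3l and Ndrg1 are not in the table.

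The libraries held 101893367 and 62850768 UMIs, and 15050 and 7910 barcodes passed the rule of at least 1000 UMIs, 500 genes and at most 10% mitochondrial UMIs. After removal of likely doublets 13624 and 7409 cells were used. The libraries shared 31 cell barcodes, where 17.5 would be shared by size alone. Cells were clustered without the members and named from marker lists. Microglia-like cells (6350 in library 1 and 5085 in library 2), macrophage-like cells (3419 and 172), monocyte-like cells (450 and 444) and neutrophil-like cells (62 and 325) carry most of the results. Cluster 5 (1116 and 365 cells), led by Arg1, Pf4 and Hmox1, stayed unnamed. The names rest on clustering done here. The few macrophage-like cells of library 2 limit every comparison with that class. The 12 microglia markers were all detected in every class, and summed to 49525 and 62778 CPM (counts per 1000000 UMIs) in microglia-like, 4991 and 7158 in macrophage-like, 4509 and 5638 in cluster 5, and 14243 and 6660 in monocyte-like cells. Their part in the results was not tested.

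Taken over the UMIs summed per class, the 32 members together took 0.453% and 0.466% of the UMIs of microglia-like cells in libraries 1 and 2, and 0.465% and 0.483% of those of macrophage-like cells, ranges that overlapped. The share was 0.608% and 0.978% in monocyte-like cells and 0.860% and 1.04% in cluster 5. Cluster 21, led by Hmox1, Gclm and Prdx1 (149 and 7 cells), reached 0.926% and 1.03%. Pericyte-like cells had the lowest share, 0.297% and 0.349%.

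**Figure D1:**
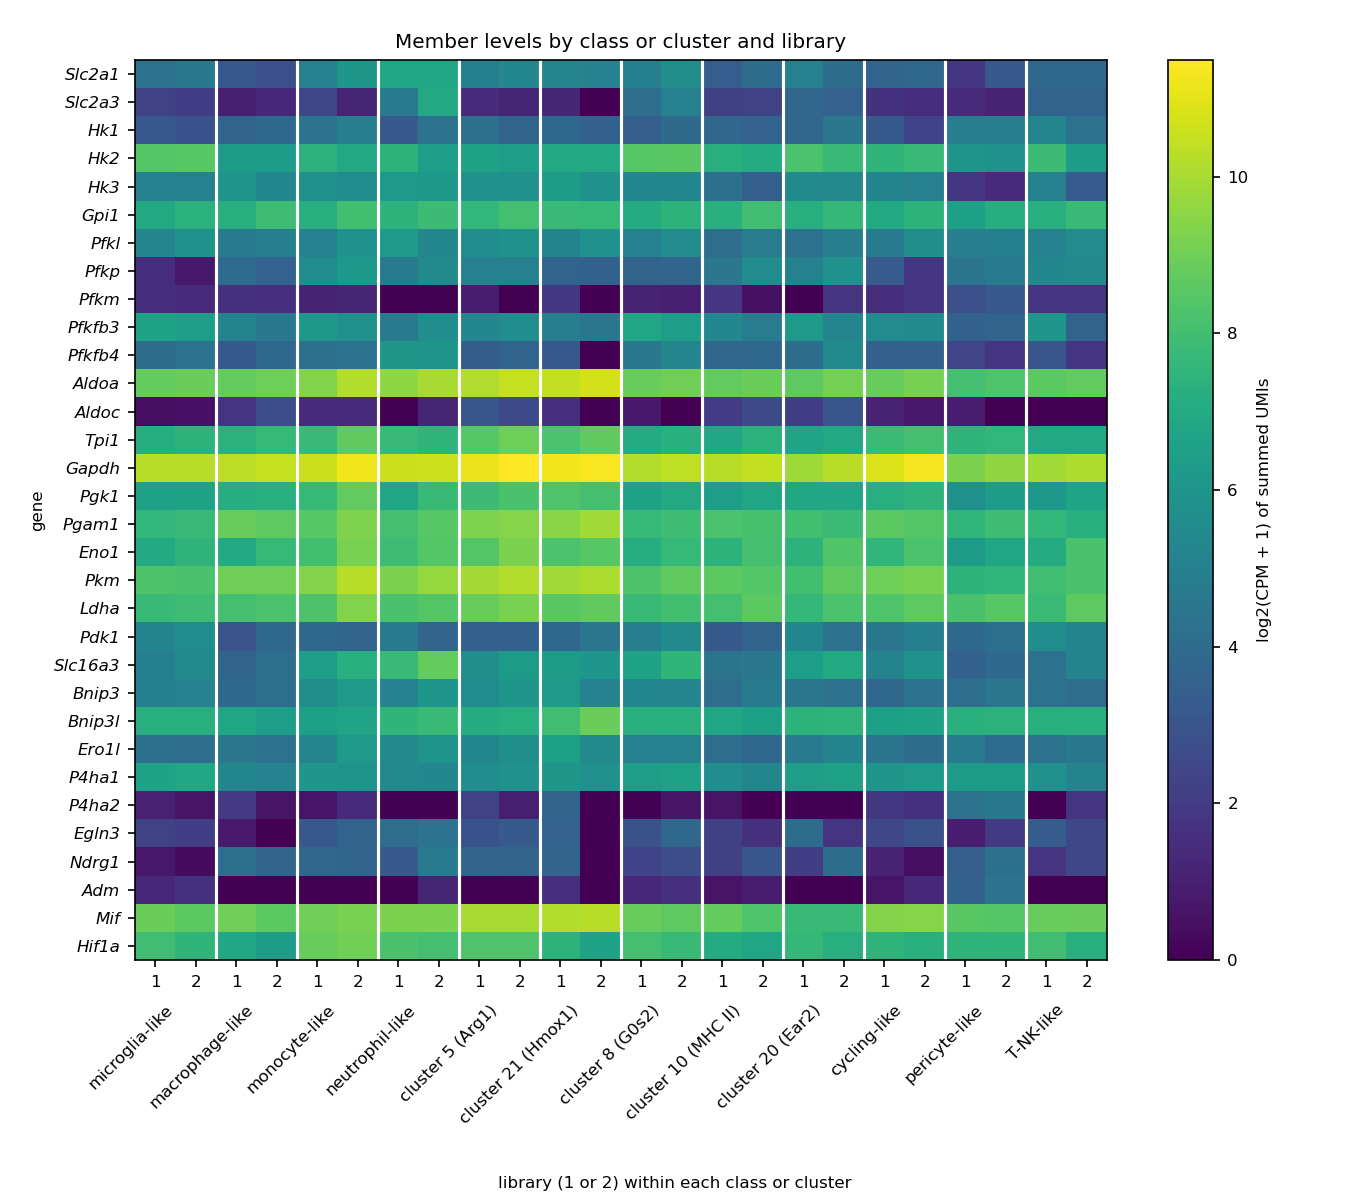
Levels of the 32 members as log2(CPM + 1) of summed UMIs (colour) in each class or unnamed cluster (columns, library 1 and library 2 side by side). The rows of Aldoa, Tpi1, Pgk1, Pgam1 and Pkm are brightest in cluster 5, cluster 21 and the monocyte-like cells of library 2, while Hk2 is brightest in microglia-like cells and cluster 8.

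Between macrophage-like and microglia-like cells the members went both ways. Of 31 members tested with edgeR's quasi-likelihood test, with the library as a block and Benjamini-Hochberg adjustment, 9 were higher and 11 lower in macrophage-like cells, where 18.9% and 18% of all 10250 genes tested were called. The median log2 fold change of the members was 0.39 against 0.02 over all genes. Higher in macrophage-like cells were the enzymes Hk1, Hk3, Gpi1, Pfkp, Pgk1, Pgam1 and Pkm, with P4ha2 and Ndrg1. Lower were Hk2, the glucose carriers Slc2a1 and Slc2a3, the lactate carrier Slc16a3, the regulators Pfkfb3 and Pdk1, and Bnip3, P4ha1, Egln3, Adm and Hif1a. Scaling to total UMIs in place of edgeR's normalisation factors moved the median of all genes to −0.32, and gave 8 higher and 14 lower members. Log2 differences of this comparison given below can therefore differ from the CPM beside them. Without the macrophage-like sum of library 1 the counts were 2 and 8, and without that of library 2 they were 9 and 6. Without the microglia-like sum of library 1 they were 8 and 5. Single calls ended for Adm, Bnip3, Gpi1, Hk1, Hk3, P4ha2, Pgam1, Pgk1, Pkm and Slc2a3 without macrophage-like library 1, and for Bnip3, Gpi1, Hif1a, Slc16a3, Slc2a1 and Slc2a3 without macrophage-like library 2. They ended for Bnip3, Egln3, Hif1a, Hk3, Slc16a3, Slc2a1 and Slc2a3 without microglia-like library 1, and for Gpi1, Pgk1 and Pkm without microglia-like library 2. The calls of Hk2, Pfkp, Pfkfb3, Pdk1, P4ha1 and Ndrg1 held in each of these 4 fits. With cells assigned by their marker UMIs instead of by cluster, the counts were 15 higher and 6 lower, and 2 and 1 in a second form of that assignment. Counting the unnamed cluster 5, described below, as macrophage-like gave 16 and 6.

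Monocyte-like cells had higher levels of many members. Slc2a1, Pfkp, Pfkfb3, Pfkfb4, Aldoa, Pgk1, Eno1, Slc16a3, Bnip3, Ero1l, P4ha1, Egln3 and Hif1a were higher than in macrophage-like cells. That made 13 of 31 higher and 0 lower, where 6.74% and 9.87% of all genes were called, and the median was 0.73 against −0.16. At an unadjusted p under 0.05 edgeR also found 0 lower, and DESeq2 called 0 lower. Against microglia-like cells 19 were higher and 4 lower (Hk2, Pdk1, P4ha1 and Adm), where 13.9% and 19.7% of all genes were called. The P4ha1 call (−0.56) was lost without the library block (adjusted p = 0.0651), at Leiden resolution 0.4, with the stricter cell filter, with RLE size factors, with no filter on low counts and in a fit of the compared classes alone, and that of Gpi1 without the block (adjusted p = 0.108). The count of 13 fell to 7 without the library block (Aldoa, Eno1, Pgk1, Pfkfb3, Pfkfb4 and P4ha1 were lost), to 7 and 6 without the macrophage-like sum of library 1 or 2, and to 5 without the monocyte-like sum of library 2. The count of 19 fell to 10 without that same monocyte-like sum, and the 4 lower members fell to 1 without it and to 2 without the microglia-like sum of library 2. The higher calls of Aldoa, Eno1, Ero1l and Pgk1 over macrophage-like cells were lost without library 2 of either class, and those of Aldoa, Ero1l and Pgk1 also without macrophage-like library 1. Those of P4ha1, Pfkfb3 and Pfkfb4 were lost without any 1 of the 4 sums, and that of Pfkp without monocyte-like library 2. Counting cluster 5 as macrophage-like left 8 higher, and weighting the clusters of a class equally gave 20. Assigning cells by marker UMIs reversed much of this, with 6 higher and 10 lower than macrophage-like cells in its first form and 0 higher in its second, and 8 higher and 8 lower than microglia-like cells in the first. Of the monocyte cells so assigned in the first and second form, 2.70% and 27.6% lay in monocyte-like clusters.

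Cluster 5 had 17 of 32 members higher and 1 lower than the mean of macrophage-like clusters 3 and 6, where 6.61% and 5.97% of all genes were called. Macrophage-like cluster 16 (17 cells in library 2) was under the minimum of 30 cells and was left out. It exceeded cluster 5 in Pgk1 (569 and 415 against 236 and 294 CPM) and Ldha (478 and 602 against 448 and 575 CPM). Its Pkm was similar (1303 and 1091 against 975 and 1154 CPM). Its Mif (512 and 540 against 1018 and 1002 CPM) and Hif1a (146 and 76.5 against 321 and 323 CPM) were lower. The calls of Pfkl and Pgam1 were lost without the library block (adjusted p = 0.104 and 0.102). All 12 markers of monocyte-derived macrophages were detected in cluster 5, at 33890 and 29833 CPM in sum against 47586 and 34982 CPM in macrophage-like cells. Cluster 5 also had border-associated macrophage markers (8 of 10 detected, with Lyve1 and Cd209f at 0 UMIs) at 5485 and 3419 CPM in sum against 1043 and 1461 CPM in macrophage-like cells. All 10 monocyte markers were detected, at 2652 and 3908 CPM against 862 and 1796 CPM. Their part in these differences was not tested. Against the mean of the microglia-like clusters 23 were higher and 5 lower, where 27.4% and 20.5% were called. The calls of Pfkl (higher) and Pfkfb3 (lower) there were lost without the library block (adjusted p = 0.319 and 0.0541). Against monocyte-like clusters 11 and 15, 3 were higher and 5 lower, where 8.13% and 7.64% were called. The members higher than in monocyte-like clusters were Mif (0.80), Bnip3l (0.49) and Aldoc (1.93), and those lower were Hk2 (−0.68), Pfkp (−0.87), Pfkfb4 (−0.90), Slc16a3 (−0.86) and Hif1a (−0.65). The 3 higher members became 1 without library 1 of cluster 5 or of cluster 11 and 6 without library 2 of cluster 11. The 5 lower members became 3 without library 2 of cluster 11, 8 and 1 without library 1 or 2 of cluster 15, 2 without either library of cluster 5 and 1 (Pfkfb4) without the library block. Aldoc was not called without the block either (1.86, adjusted p = 0.0585), and Bnip3l was not called in a fit of the compared clusters alone (adjusted p = 0.0592). The member lower than in macrophage-like clusters was Pfkm (−2.02 ± 0.63, adjusted p = 0.0288), at 0.849 and 0 CPM in cluster 5, and it was not called without library 1 of cluster 3 or 6 or library 2 of cluster 5. All comparisons with cluster 5 were added after the clusters were seen, and they share its sums.

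**Figure D2:**
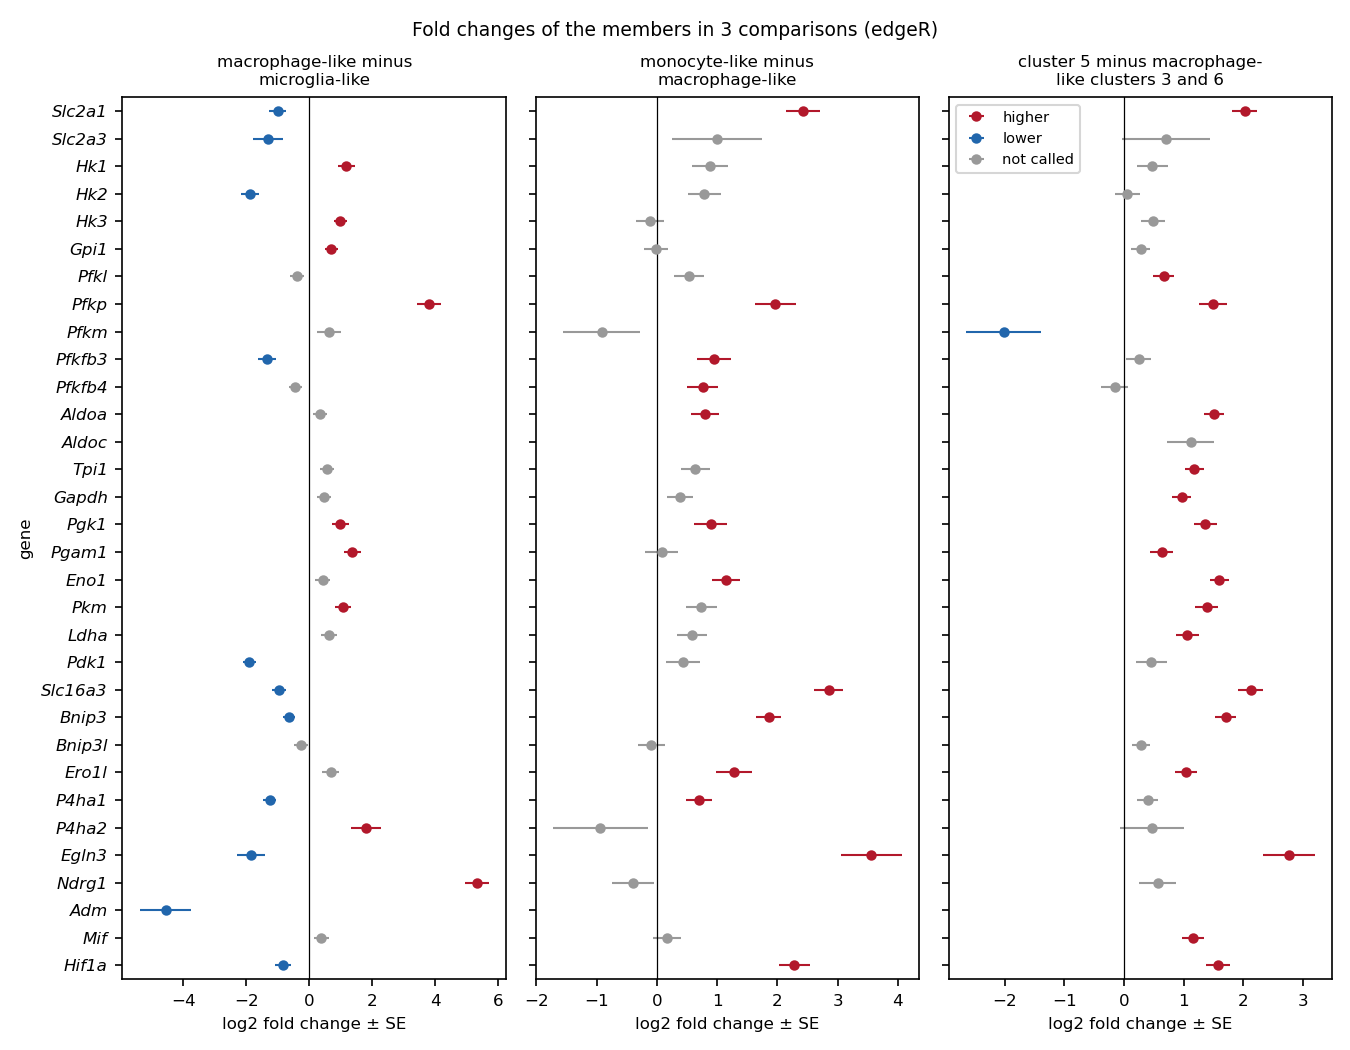
Log2 fold change ± SE (horizontal axis) of each member (rows) for macrophage-like minus microglia-like, monocyte-like minus macrophage-like and cluster 5 minus macrophage-like clusters 3 and 6, with members called higher in red, lower in blue and not called in grey. Slc2a1, Slc16a3, Egln3 and Hif1a lie left of 0 in the first panel and right of 0 in the other panels; a gene left out of a panel was not tested or had no usable error there.

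The glucose transporters came first in the order of the pathway. Slc2a1, the widely expressed GLUT1, stood at 18.8 and 24.2 CPM in microglia-like cells and 7.86 and 6.05 CPM in macrophage-like cells, groups that did not overlap. It was lower in macrophage-like cells by a log2 difference of −1.01 ± 0.26 (SE; adjusted p = 0.00521). In monocyte-like cells it stood at 31.2 and 66.6 CPM, and was higher than in macrophage-like cells by 2.43 ± 0.29 (adjusted p = 2.88e-05). Cluster 5 had 30.1 and 39.2 CPM. Slc2a3, the high-affinity GLUT3, stayed under 5 CPM in all of these classes, and its lower call in macrophage-like cells (−1.30 ± 0.47, adjusted p = 0.0375) was not made by DESeq2 (adjusted p = 0.191) or without the library block (adjusted p = 0.0547). Neutrophil-like cells differed, with 24.7 and 122 CPM of Slc2a3 against 4.46 and 1.28 in monocyte-like cells (5.22 ± 0.54, adjusted p = 2.28e-05). The neutrophil-like values rested on 3 UMIs in library 1 and 98 in library 2. In log2 CPM the difference was 2.24 in library 1 and 5.76 in library 2, so its size rested mostly on library 2.

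The hexokinases trap glucose in the cell. Hk2, an isoform induced by many signals (chr6:82725025-82774454), stood at 344 and 360 CPM in microglia-like cells. Macrophage-like cells had 76.3 and 78.6 CPM, monocyte-like cells 168 and 121 CPM and cluster 5 99.4 and 85.6 CPM, so no other of these classes came near the microglia-like values. Outside them, unnamed cluster 8 (G0s2, Hdc, Cxcr2) had 362 and 373 CPM and unnamed cluster 20 (Ear2, Ace, Treml4) 303 and 219 CPM. Within the microglia-like class, cluster 12 had only 134 and 98.0 CPM. The macrophage-like level was lower by −1.88 ± 0.28 (adjusted p = 3.04e-05) and the monocyte-like level by −1.09 ± 0.27 (adjusted p = 0.00448). Hk1, the constitutive isoform, was at 7.63 and 6.55 CPM in microglia-like and 12.2 and 14.1 CPM in macrophage-like cells (1.18 ± 0.27, adjusted p = 0.00192). Hk3, a myeloid isoform, was at 32.1 and 31.2 CPM and at 60.5 and 38.3 CPM (0.99 ± 0.22, adjusted p = 0.00142). In log2 CPM Hk3 differed by 0.89 and 0.29 in libraries 1 and 2. In the class sums Hk1 and Hk3 thus differed in the opposite direction to Hk2. Free RNA (defined with Pfkp below) held Hk3 at 54.2 and 44.5 CPM, close to the macrophage-like values. It held Hk1 at 8.99 and 10.5 CPM, under the macrophage-like values. Within the macrophage-like class Hk3 was not uniform, and was higher in cluster 3 than in cluster 6 (1.38 ± 0.26, adjusted p = 0.000814).

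Counted as shares of hexokinase UMIs, Hk2 took 89.6% (95% Wilson interval 89.0 to 90.2) and 90.5% (89.99 to 91.0) in microglia-like cells. In macrophage-like cells it took 51.2% (49.7 to 52.8) and 60.0% (53.9 to 65.8), and Hk3 took 40.6% and 29.2%. Monocyte-like cells had Hk2 shares of 69.7% and 61.6%, and cluster 5 had 57.2% and 56.3%. The phosphofructokinases divided as clearly. Pfkl, the liver-type isoform, took 90.8% and 96.0% of phosphofructokinase UMIs in microglia-like cells, while Pfkp, the platelet-type isoform, took 4.59% (3.51 to 5.96) and 1.24% (0.832 to 1.83). Pfkp took 36.5% (33.7 to 39.4) and 26.5% (18.2 to 36.9) in macrophage-like cells and 58.7% (50.5 to 66.5) and 54.5% (49.5 to 59.3) in monocyte-like cells. The intervals cover counting error only. Because UMIs are read at the 3′ end, a share compares tags and not enzyme.

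**Figure D3:**
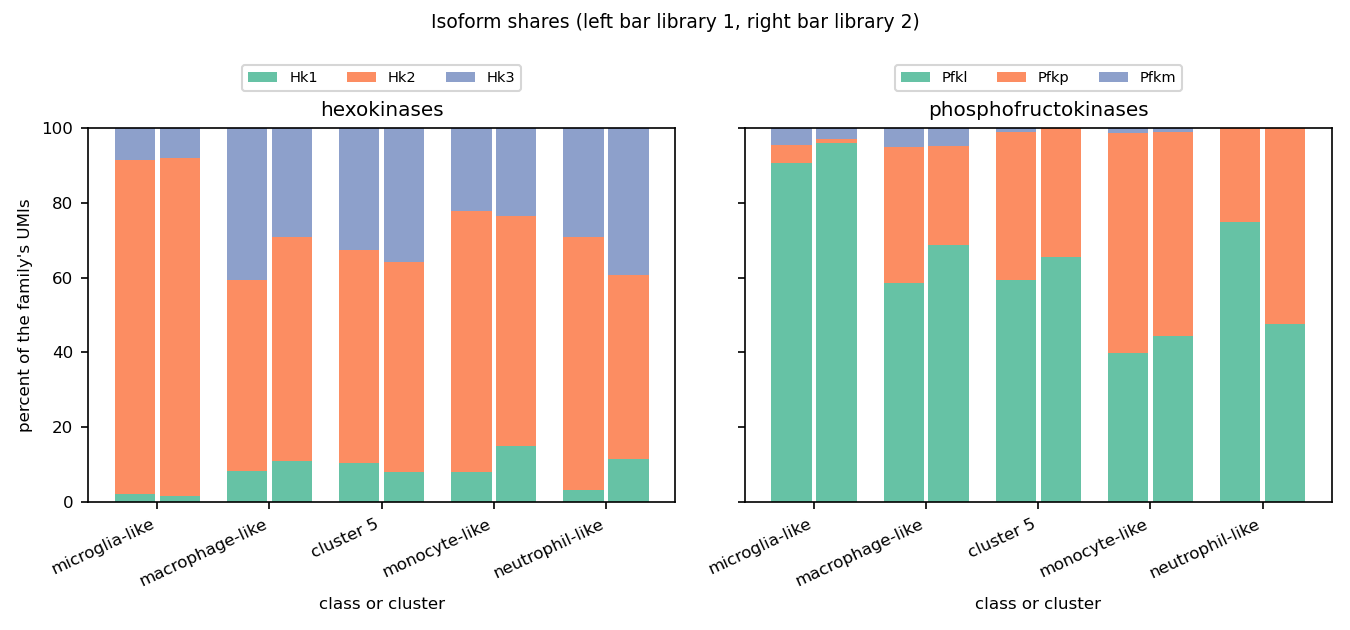
Shares of hexokinase UMIs (left panel) and phosphofructokinase UMIs (right panel) taken by each isoform, in percent, for 5 classes or clusters, with library 1 as the left and library 2 as the right bar. Hk2 fills 89.6% and 90.5% of the microglia-like hexokinase bars, and Pfkp 4.59% and 1.24% of the microglia-like phosphofructokinase bars.

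In levels, Pfkp (chr13:6579768-6648777) was at 1.84 and 0.735 CPM in microglia-like cells, under its level in free RNA (12.6 and 15.5 CPM in barcodes with fewer than 100 UMIs). It was at 15.3 and 11.1 CPM in macrophage-like cells (3.80 ± 0.38, adjusted p = 4e-07), 46.9 and 67.9 CPM in monocyte-like cells and 30.9 and 31.1 CPM in cluster 5. The macrophage-like values were thus close to the free RNA level, and those of monocyte-like cells and cluster 5 lay above it. Pfkl was at 36.5 and 57.1 CPM in microglia-like and 24.6 and 28.7 CPM in macrophage-like cells (−0.40 ± 0.23, adjusted p = 0.188). Pfkm, the muscle-type isoform, was under 3 CPM in these classes. Gpi1, which isomerises glucose 6-phosphate, was at 126 and 163 CPM and at 146 and 242 CPM. Its call as higher in macrophage-like cells (0.71 ± 0.20, adjusted p = 0.00933) was lost when sums were scaled to total UMIs (0.39, adjusted p = 0.10) and without the library block (0.72, adjusted p = 0.116).

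Pfkfb3 and Pfkfb4 make fructose 2,6-bisphosphate, the activator of phosphofructokinase. Pfkfb3 stood at 102 and 85.0 CPM in microglia-like and 33.8 and 23.7 CPM in macrophage-like cells (−1.34 ± 0.27, adjusted p = 0.000771), with 68.6 and 53.9 CPM in monocyte-like cells between them. Pfkfb4 was at 15.8 and 18.6 CPM and at 8.54 and 13.1 CPM, and was not called in that comparison. In neutrophil-like cells Pfkfb4 reached 65.99 and 64.98 CPM, higher than the 17.8 and 18.8 CPM of monocyte-like cells (1.73 ± 0.30, adjusted p = 0.00117). The call was lost at Leiden resolution 0.4 (0.61, adjusted p = 0.129) and with a stricter cell filter (0.52, adjusted p = 0.216). Under both settings the class held other cells as well. In neutrophil-like cells of the main setting Pfkfb4 took 72.7% (43.4 to 90.3) and 57.1% (46.9 to 66.8) of the UMIs of this pair, against 13.5% and 18.0% in microglia-like cells.

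The aldolases and Tpi1 yield the triose phosphates that enter lower glycolysis. Aldoa, the main aldolase, was at 438 and 484 CPM in microglia-like and 441 and 493 CPM in macrophage-like cells, groups that overlapped. Cluster 5 had 1108 and 1407 CPM, and against clusters 3 and 6 the difference was 1.503 ± 0.17 (adjusted p = 3.03e-08). Aldoc, the brain-type aldolase, did not pass the filter on low counts among classes. It was at 0.355 and 0.459 CPM in microglia-like cells and 7.13 and 4.86 CPM in cluster 5, and between clusters it was called higher in cluster 5 than in microglia-like clusters (4.07 ± 0.44, adjusted p = 6e-10). Tpi1, the triose phosphate isomerase, was at 143 and 170 CPM in microglia-like cells, 166 and 205 CPM in macrophage-like cells and 368 and 500 CPM in cluster 5. For Aldoa and Tpi1 the step came between macrophage-like cells and cluster 5 (Tpi1 1.18 ± 0.16, adjusted p = 2.07e-06), and not between macrophage-like and microglia-like cells (adjusted p = 0.264 and 0.0673).

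In lower glycolysis, Pgk1, which makes the first ATP of the pathway, was at 93.5 and 95.9 CPM in microglia-like, 142 and 157 CPM in macrophage-like, 206 and 422 CPM in monocyte-like cells and 236 and 294 CPM in cluster 5. Its higher call in macrophage-like cells (0.99 ± 0.27, adjusted p = 0.0068) rested on cluster 16 of that class, with 242 and 17 cells and 569 and 415 CPM. Without cluster 16 the difference was 0.44 (adjusted p = 0.268). Pgam1, phosphoglycerate mutase, was at 196 and 220 CPM in microglia-like and 452 and 394 CPM in macrophage-like cells (1.37 ± 0.27, adjusted p = 0.000615). Pkm, the pyruvate kinase, was at 311 and 295 CPM and at 506 and 511 CPM (1.07 ± 0.26, adjusted p = 0.0028), and remained called without cluster 16 (0.80, adjusted p = 0.0315). In the class sums both differences exceeded the spread between libraries, and cluster 16 again had the highest Pkm of its class (1303 and 1091 CPM). Not every macrophage-like cluster was higher. Cluster 6 (1262 and 118 cells) had 244 and 245 CPM of Pkm, below the microglia-like values. Its Pgam1 (257 and 234 CPM) lay nearer to the microglia-like values than that of cluster 3 (525 and 595 CPM).

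Gapdh, Eno1 and Ldha did not differ beyond the threshold between macrophage-like and microglia-like cells (adjusted p = 0.0906, 0.159 and 0.0535). Gapdh, the dehydrogenase often used as a reference gene, was at 1234 and 1239 CPM in microglia-like cells, 1314 and 1442 CPM in macrophage-like cells and 2280 and 2874 CPM in cluster 5, where it was higher than in clusters 3 and 6 (0.97 ± 0.16, adjusted p = 4.28e-05). Enolase Eno1 was at 129 and 179 CPM in microglia-like, 129 and 207 CPM in macrophage-like and 255 and 579 CPM in monocyte-like cells (1.15 ± 0.24 over macrophage-like, adjusted p = 0.00293, and 1.26 with adjusted p = 0.0667 without the library block). Ldha, which reduces pyruvate to lactate, was at 212 and 244 CPM, 263 and 298 CPM, and 308 and 637 CPM in the same order. For Pgk1, Eno1, Pkm and Ldha the monocyte-like sums of library 2 were higher than those of library 1. The microglia markers summed to 14243 CPM in the monocyte-like cells of library 1 and 6660 CPM in those of library 2, and their part in this was not tested. Gapdh has 4 near-identical copies among the features and Eno1 has Eno1b, so reads of these 2 members may be split. Mif has 2 copies in the annotation and 0 among the features.

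Pyruvate use divided the classes further. Pdk1, a kinase that inhibits the pyruvate dehydrogenase of mitochondria, was at 35.4 and 47.0 CPM in microglia-like and 6.69 and 13.6 CPM in macrophage-like cells (−1.90 ± 0.22, adjusted p = 1.63e-06). It was as low in monocyte-like cells (13.9 and 12.1 CPM) and in cluster 5 (10.5 and 10.7 CPM), so among these groups only microglia-like cells were high. Slc16a3, the lactate exporter MCT4 (chr11:120948480-120960868), was at 29.9 and 42.7 CPM in microglia-like, 11.96 and 16.6 CPM in macrophage-like and 86.5 and 150 CPM in monocyte-like cells. It was lower in macrophage-like than in microglia-like cells (−0.96 ± 0.23, adjusted p = 0.00271) and higher in monocyte-like than in macrophage-like cells (2.85 ± 0.24, adjusted p = 1.33e-06). It was higher in monocyte-like than in microglia-like cells as well (1.89 ± 0.22, adjusted p = 4.24e-06), where Hk2 was lower. Neutrophil-like cells had 214 and 434 CPM (1.39 ± 0.23 over monocyte-like, adjusted p = 0.00106), a difference that was −0.029 at Leiden resolution 0.4 and 0.15 (adjusted p = 0.74) with a stricter cell filter. Under both settings the neutrophil-like class held other cells as well.

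Bnip3 and Bnip3l encode receptors that mark mitochondria for removal. Bnip3 was at 30.01 and 33.1 CPM in microglia-like, 14.4 and 16.6 CPM in macrophage-like, 52.4 and 73.0 CPM in monocyte-like cells and 47.2 and 63.2 CPM in cluster 5. The macrophage-like level was lower than the microglia-like one by −0.65 ± 0.19 (adjusted p = 0.0132), a call lost without any of 3 of the 4 sums. The monocyte-like level was higher than the macrophage-like one by 1.85 ± 0.21 (adjusted p = 2.04e-05), and the cluster 5 level was higher than that of clusters 3 and 6 by 1.70 ± 0.18 (adjusted p = 6.35e-09). Bnip3l varied little, from 84.2 to 149 CPM over these groups and libraries, and was not called among microglia-like, macrophage-like and monocyte-like cells.

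Ero1l, P4ha1 and P4ha2 act in protein folding. Ero1l, the oxidase that drives disulfide formation, was at 18.1 and 16.4 CPM in microglia-like, 22.6 and 19.2 CPM in macrophage-like and 36.8 and 73.7 CPM in monocyte-like cells (1.28 ± 0.30 over macrophage-like, adjusted p = 0.00699). P4ha1, the catalytic subunit of collagen prolyl 4-hydroxylase, went the other way, with 98.4 and 117 CPM in microglia-like and 37.2 and 33.3 CPM in macrophage-like cells (−1.26 ± 0.20, adjusted p = 8.83e-05). P4ha2, its paralog, was at 1.10 and 0.521 CPM and at 2.71 and 0.504 CPM, so only library 1 showed a difference. Its call (1.81 ± 0.48, adjusted p = 0.00667) turned to −0.37 without the macrophage-like sum of library 1 and was not made by DESeq2 (adjusted p = 0.0715).

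Egln3 is an oxygen-sensing prolyl hydroxylase that is itself a HIF target. It was at 3.76 and 3.34 CPM in microglia-like and 0.790 and 0 CPM in macrophage-like cells (−1.86 ± 0.44, adjusted p = 0.0028). Monocyte-like cells had 7.81 and 11.5 CPM (3.56 ± 0.50 over macrophage-like, adjusted p = 0.000161) and cluster 5 6.46 and 8.43 CPM. The free RNA level was 3.20 and 3.62 CPM, close to that of microglia-like cells.

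Ndrg1, Adm and Mif are further HIF targets. Ndrg1, a stress-response gene (chr15:66929318-66969640), was at 0.674 and 0.276 CPM in microglia-like and 16.5 and 12.6 CPM in macrophage-like cells (5.33 ± 0.37, adjusted p = 1.12e-08). Cluster 16 had 110 and 34.5 CPM of it, and clusters 3 and 6 had 4.79 to 11.2 CPM over both libraries, against 8.39 and 6.15 CPM in free RNA. Without cluster 16 the difference was 4.25. Adm, the vasodilator adrenomedullin, was at 1.49 and 2.20 CPM in microglia-like cells, at 0.0376 and 0 CPM (1 UMI in all) in macrophage-like cells, where it was called lower (adjusted p = 0.000335), and at 0 in both libraries in monocyte-like cells and in cluster 5. The microglia-like values were close to the free RNA level of 1.998 and 1.084 CPM, so no fold is given. In pericyte-like cells Adm was at 10.97 and 19.9 CPM. Mif, a cytokine with tautomerase activity, was at 472 and 391 CPM in microglia-like and 516 and 380 CPM in macrophage-like cells, which overlapped, and at 1018 and 1002 CPM in cluster 5 (1.15 ± 0.18 over clusters 3 and 6, adjusted p = 1.99e-05).

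Hif1a, the regulated HIF subunit (chr12:73901375-73947530), was at 246 and 184 CPM in microglia-like, 113 and 77.1 CPM in macrophage-like, 452 and 528 CPM in monocyte-like cells, 321 and 323 CPM in cluster 5 and 289 and 266 CPM in neutrophil-like cells. Monocyte-like cells were highest and macrophage-like cells lowest in both libraries. The macrophage-like level was lower than the microglia-like one by −0.84 ± 0.25 (adjusted p = 0.0121) and the monocyte-like level was higher than the macrophage-like one by 2.28 ± 0.26 (adjusted p = 2.04e-05). Cluster 5 was higher than macrophage-like clusters (1.58 ± 0.20, adjusted p = 3.52e-07) and lower than monocyte-like clusters (−0.65 ± 0.20, adjusted p = 0.026). The last call was lost without the library block (−0.62, adjusted p = 0.138). RNA of Hif1a does not show its protein, which also depends on oxygen and was not measured.

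The macrophage-like cells were not uniform. Cluster 3, led by Gpnmb, Fabp5 and Spp1, had 10 of 32 members higher and 0 lower than cluster 6, where 4.95% and 4.18% of all genes were called. At an unadjusted p under 0.05 edgeR also found 0 lower, and DESeq2 called 0 lower. The 10 were Hk3, Aldoa, Tpi1, Gapdh, Pgk1, Pgam1, Eno1, Pkm, Ldha and Mif. Pgam1 stood at 525 and 595 CPM in cluster 3 and at 257 and 234 CPM in cluster 6 (1.14 ± 0.23, adjusted p = 0.00141), and Pkm at 490 and 589 CPM and at 244 and 245 CPM (1.10 ± 0.24, adjusted p = 0.0023, and adjusted p = 0.0558 without the library block). Hif1a was not called (107 and 76.5 CPM against 116 and 77.7 CPM, adjusted p = 0.974). The count of 10 fell to 2 without the library block, to 0 without library 1 of cluster 3 and to 1 without library 2 of cluster 6. Cluster 3 had 37 cells in library 2.

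Microglia-like clusters differed in the same enzymes. Clusters 4 and 12, led by Ctla2a, Cd72 and Igf1 and by Cst7, Npl and Saa3, had 15 and 13 of 30 tested members higher than the mean of the other microglia-like clusters (3 lower in each), where 19.2% and 15.2% of all genes were called higher and 8.21% and 14.4% lower. Cluster 0, with the immediate-early genes Egr1 and Jun, had 5 higher and 12 lower, where 18.2% and 14.5% of all genes were called. Cluster 1, with the homeostatic gene P2ry12, had 3 and 14 (18.2% and 15.7%), and cluster 7, with the glucocorticoid-induced genes Tsc22d3 and Fkbp5, had 2 and 13 (13.1% and 8.82%). Clusters 2 and 13 had 0 and 1 members higher and 0 lower, where 0.0608% and 2.83% of all genes were called higher and 0% and 0.162% lower. At an unadjusted p under 0.05 edgeR found 1 higher and 0 lower in cluster 2 and 5 and 1 in cluster 13, and DESeq2 called 0 and 0, and 3 and 0. Each cluster was compared with the mean of the others, so the counts are not independent.

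Aldoa, Tpi1, Gapdh, Pgk1, Pgam1, Eno1, Pkm, Ldha and Mif were called lower in clusters 0, 1 and 7 and higher in clusters 4 and 12. Pkm ran from 158 CPM in cluster 7 of library 2 to 596 CPM in cluster 4 of library 2, with a difference of 1.21 for cluster 4 and −0.93 for cluster 7 (adjusted p = 1.5e-06 and 0.00049). Hk2 ran against them, higher in clusters 0 (0.56) and 1 (0.38) and lower in clusters 4 (−0.47) and 12 (−1.20). Pdk1 was higher in clusters 0 (0.31) and 1 (0.74) and lower in cluster 4 (−0.44). Pfkfb3 was highest in cluster 7, at 188 and 144 CPM (1.37, adjusted p = 3e-09), and lowest in cluster 12, at 20.2 and 13.1 CPM (−2.18, adjusted p = 3.4e-08). Hif1a was lower in cluster 1 (−0.99, adjusted p = 0.00019) and higher in cluster 4 (0.58, adjusted p = 0.0071). Cells of clusters 1 and 12 were shallow, with median UMIs of 1510.5 and 3653.5 and of 2149.5 and 2614.5. Scaling to total UMIs moved the median of all genes from 0.06 to 0.45 in cluster 1, from −0.12 to −0.54 in cluster 12 and from 0.06 to 0.29 in cluster 0. Calls in these clusters can therefore differ from their CPM. Tpi1, called lower in cluster 1 (−0.41), differed by 0.03 and −0.07 in log2 CPM of libraries 1 and 2.

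**Figure D4:**
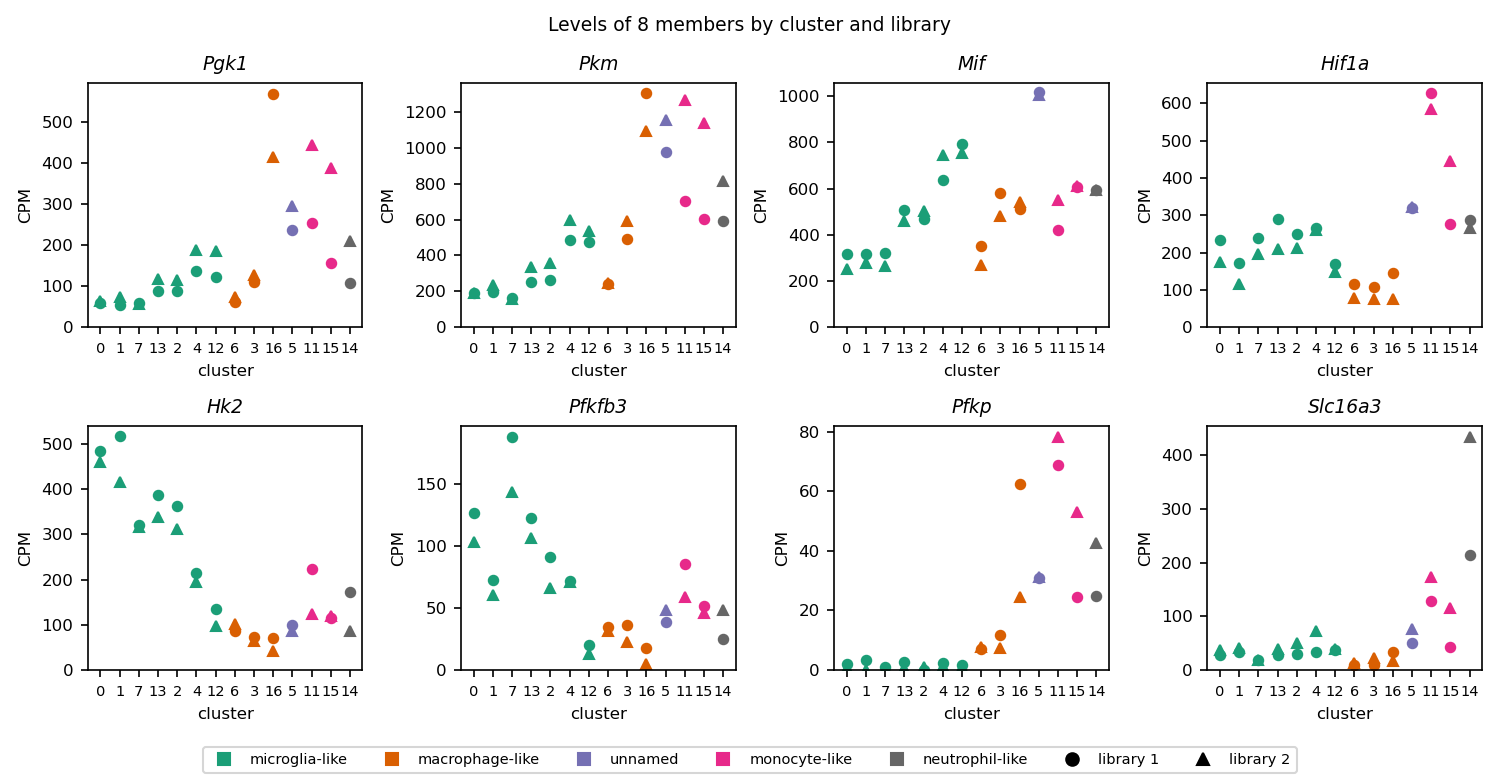
CPM (vertical axis, from 0) of 8 members in each cluster (horizontal axis, coloured by class), with circles for library 1 and triangles for library 2. Among microglia-like clusters Pgk1, Pkm and Mif are lowest in clusters 0, 1 and 7, Hk2 is highest in clusters 0 and 1 and Pfkfb3 in cluster 7, and among macrophage-like clusters Pgk1, Pkm and Mif are lowest in cluster 6.

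Neutrophil-like cells, a comparison also added after the clusters were seen, had 5 of 31 members higher and 2 lower than monocyte-like cells, where 4.07% and 6.5% of all genes were called. Beside Slc2a3, Pfkfb4 and Slc16a3, Slc2a1 (107 and 117 CPM, 1.06 ± 0.30, adjusted p = 0.032, and 0.0784 without the library block) and Bnip3l (181 and 211 CPM, 0.93 ± 0.25, adjusted p = 0.0209) were higher. Pgk1 (−0.96, adjusted p = 0.0467) and Hif1a (−0.93, adjusted p = 0.0296) were lower, and neither was called by DESeq2 or without the library block (adjusted p = 0.0667 for Hif1a and 0.151 for Pgk1). The neutrophil-like cells of library 1 numbered 62, and their microglia marker sum was 19450 CPM against 10083 CPM in library 2. The counts were 0 and 0 without library 2 of this class, 4 and 0 without its library 1, 3 and 4 without monocyte-like library 1, and 4 and 0 without monocyte-like library 2. They were 2 and 13 at Leiden resolution 0.4 and 3 and 15 with the stricter cell filter (2000 UMIs, 1000 genes, 5% mitochondrial UMIs), where Slc2a1 turned to −0.60 and −0.58. The class did not hold the same cells there. At resolution 0.4 it had 695 and 568 cells. Under the stricter filter it joined a cluster of 548 and 277 cells with 1 of 51 and 70 cells led by Ear2. These 2 settings are thus no repeat on the same cells. The calls of Bnip3l (0.42 in both, adjusted p = 0.139 and 0.193), Pfkfb4 and Slc16a3 also ended under both settings, and that of Slc2a3 was kept.

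Other genes of the pathways were read from lists that hold none of the members. In macrophage-like minus microglia-like cells, where 18.9% of all genes were higher and 18% lower, 1 of 11 tested HIF regulators was higher and 3 lower. Epas1, the HIF-2α subunit, was at 14.6 and 4.03 CPM in macrophage-like and 0.284 and 0.092 CPM in microglia-like cells (5.95 ± 0.39), the opposite direction to Hif1a. Vhl, the ligase that degrades hydroxylated HIF, and Hif1an, the asparaginyl hydroxylase of HIF, were lower (−0.80 and −0.66), while the main oxygen sensor Egln1 (−0.05) and Arnt (−0.37) were not called. Against the same shares, 8 of 26 other HIF targets were higher and 7 lower, led by Cxcr4, a chemokine receptor (3.45), Bhlhe40, a repressor (3.24), and Plod2, a lysyl hydroxylase (3.01) at 0.489 and 0 CPM in macrophage-like cells.

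Vegfa, the vascular growth factor and HIF target, was at 6.78 and 4.38 CPM in microglia-like, 23.9 and 12.6 CPM in macrophage-like, 143 and 259 CPM in monocyte-like cells and 146 and 212 CPM in cluster 5. Cluster 5 exceeded macrophage-like clusters by 2.68 ± 0.27 and microglia-like clusters by 5.63 ± 0.23, and Vegfa belongs to the list of 26 other HIF targets. Of these 9 were higher and 1 lower against macrophage-like clusters, where 6.61% and 5.97% of all genes were called, and 15 were higher and 4 lower against microglia-like clusters, where 27.4% and 20.5% were called. The remaining counts stand against the 18.9% and 18% of all genes given above. Of 7 pentose phosphate genes, which branch off after hexokinase and yield NADPH, 5 were higher in macrophage-like than in microglia-like cells and 2 were not called, led by G6pdx (1.15), Pgd (1.07) and Taldo1 (0.90). Of 12 other glycolytic and gluconeogenic genes 2 were higher and 6 lower, led by Ldhb, the lactate dehydrogenase B subunit (−2.36), and Gpd1 (−2.08) and Gpd2 (1.81), the glycerol phosphate dehydrogenases. Of 10 genes of pyruvate uptake and oxidation in mitochondria 2 were higher and 1 lower, shares near or under those of all genes. The lower one was Pdk2, a paralog of Pdk1 (−1.22), and the higher ones were Dlat (0.75) and Pdha1 (0.75), subunits of pyruvate dehydrogenase.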

How the data were processed

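Single-cell 3′ RNA libraries of 1 group with 2 replicates were used. The authors deposited whole-number UMI counts, not normalized, for each gene and barcode. The header of each matrix names Cell Ranger 4, so per the file headers that program wrote them. Versions in the submitters' processing notes are Cell Ranger 4.0.0, Seurat 4 and STAR 2.5.1b, and GRCh38 stands beside GRCm38 and mm10 there with no role stated. The handling of reads that match several genes was not stated. A gene was called a near-identical copy at 95% identity over 90 bases of the last 300.

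Scrublet was run per library. It marked 1426 cells of library 1 and 0 of library 2, where the 501 top-scoring cells were removed. The 2000 most variable genes without the members and pathway genes, 30 principal components, 15 neighbours and Leiden clustering at resolution 0.8 were used (scanpy 1.11.5, leidenalg 0.10.2, Python 3.11.15). Clusters were named from 16 marker lists. UMI counts were summed per library and class with at least 50 cells per library, or per cluster with at least 100 (microglia-like clusters) or 30 (other cluster comparisons, since cluster 6 alone among the macrophage-like clusters had 100 in both), and tested with edgeR 4.0.16 (R 4.3.3, TMM, filterByExpr, quasi-likelihood test) with the library as a block, because classes of 1 library share its preparation. Deviations of same-numbered sums correlated at 0.278, 0.0897 and 0.110 between class pairs. Benjamini-Hochberg adjustment ran over all genes not used for clustering, at a threshold of 0.05, and the script was tested on simulated data. CPM is per 1000000 UMIs of the summed cells. DESeq2 1.42.0 and other settings were alternatives.

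All members were named. Of the pathway lists, up to 3 genes with the largest absolute log2 fold change among those called in macrophage-like minus microglia-like cells were named, plus Epas1, Vhl, Egln1, Arnt and Vegfa. The members and lists were chosen with earlier results of these data known. Gene positions are 1-based, from GENCODE vM21 (GRCm38), where 99.6% of the gene IDs in the files were found. Aldoa stands on 2 rows with 40323 and 30844 UMIs and with 0 and 2 UMIs, which were added. Figures were drawn with matplotlib 3.10.9.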

Additional observations from a re-analysis of the deposited data

How the results depend on the processing

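Depth and cell numbers limit the macrophage-like class (172 cells in library 2), cluster 16 (17 cells) and neutrophil-like cells (62 in library 1) most. Of 3681 single-gene settings, 3202 kept the side of the threshold without a called reversal, 268 lost the call, 172 gained one and 39 reversed. The 3202 are not all of 1 direction, since differences called in neither fit changed sign in 178 settings and were not counted as reversed. Causes of the changes below were not tested.

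Counts are given as higher and lower members. In macrophage-like minus microglia-like cells (9 and 11), counting cluster 5 as macrophage-like gave 16 and 6, Leiden resolution 0.4 or 1.2 gave 15 higher, fitting only the classes compared gave 14 higher, and leaving out 1 sum gave 2 to 9 and 5 to 11. In monocyte-like minus macrophage-like cells (13 and 0), counting cluster 5 gave 8 higher, weighting clusters equally 20, no replicate block 7, and leaving out 1 sum 5 to 14. In monocyte-like minus microglia-like cells (19 and 4), fitting only those classes gave 2 lower, and leaving out 1 sum 10 to 20 and 1 to 3. In neutrophil-like minus monocyte-like cells (5 and 2), resolution 0.4 gave 2 and 13, the stricter cell filter 3 and 15, equal weighting 5 lower, DESeq2, RLE size factors and no replicate block 0 lower, no filter on low counts and only these classes 4 lower, and leaving out 1 sum 0 to 4 for each. At resolution 0.4 and with the stricter filter the neutrophil-like class held other cells as well. For cluster 5, fitting only the clusters compared gave 0 lower than macrophage-like clusters and 1 higher than monocyte-like clusters, total scaling 6 higher and no replicate block 1 lower than monocyte-like clusters. Leaving out 1 sum gave 15 to 17 and 0 to 1 against macrophage-like, 21 to 23 and 5 against microglia-like, and 1 to 6 and 1 to 8 against monocyte-like clusters. Macrophage-like cluster 3 against 6 (10 higher) gave 2 with no replicate block and 0 to 10 with 1 sum left out. Over microglia-like clusters (39 and 45 calls) leaving out 1 sum gave 33 to 39 and 36 to 45. The replicate block otherwise moved no count by over 1.5 times.

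Assigning cells by marker UMIs used 2 forms. The planned form kept cells that stood high for 1 list only, and the second, chosen after seeing the data of the first, took the highest standardized list. The planned form gave 15 and 6, 6 and 10, and 8 and 8 for the first 3 class comparisons, Hk2 shares of 67.4% in macrophage-like (55.6% by cluster), 91.3% in microglia-like (90.1%) and 81.0% in monocyte-like cells (65.6%), and Pfkp shares of 19.6% (31.5%) and 45.2% (56.6%) in macrophage-like and monocyte-like cells. The second form gave 2 and 1 for the first comparison, 0 higher for the second, and macrophage-like shares of 68.6% for Hk2 and 22.8% for Pfkp.

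Reversed log2 differences were as follows. In macrophage-like minus microglia-like cells, counting cluster 5 gave Bnip3 0.25, Hif1a 0.12, Slc16a3 0.14 and Slc2a1 0.036, the second form Bnip3 0.075 and Egln3 0.33, and P4ha2 ranged from −0.37 (without macrophage-like library 1) to 2.48 with 1 sum left out and was −0.016 in library 2 alone. In neutrophil-like minus monocyte-like cells, resolution 0.4 gave Slc16a3 −0.029 and Slc2a1 −0.60, and the stricter filter Hk2 1.27, Hk3 −0.83, Mif −0.975 and Slc2a1 −0.58. Both settings changed which cells the neutrophil-like class held. In monocyte-like minus macrophage-like cells the second form gave P4ha1 −0.30, Pfkfb3 −0.44 and Pfkfb4 −0.048, and the planned form Adm 4.73, Aldoa −0.79, Bnip3 −0.52, Eno1 −0.48, Ero1l −0.52, Gapdh −0.89, Mif −0.93, Ndrg1 1.88, Pfkfb3 −0.12, Pfkfb4 −0.58, Pfkl −0.63, Pgam1 −1.34, Pgk1 −0.54, Pkm −1.001 and Tpi1 −0.74. In monocyte-like minus microglia-like cells the second form gave Adm 0.90, and the planned form Adm 2.70, Bnip3 −0.65, Hif1a −0.12, Hk3 −0.95, Pfkfb4 −1.02, Pfkl −0.89 and Slc16a3 −0.35.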
